A study of Arabidopsis thaliana with 28 samples.

Results

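Class III peroxidases are secreted haem enzymes that plants keep in large, tandemly duplicated families. They use hydrogen peroxide to oxidise phenolic substrates, which joins monolignols into lignin, phenolics into suberin and tyrosine-rich extensins into a wall network, and in another catalytic cycle they release reactive oxygen that can loosen walls. In seedlings they are known from the vessel walls, the endodermis, root hairs and the elongation zone. The hormone abscisic acid (ABA) slows germination and seedling growth and is known to act on cell walls and reactive oxygen.

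The genes described here were taken from a list of 60 class III peroxidase loci. Of these, 44 were among the 18310 genes of the deposited table, and the other 16 were not analysed here. The label of that table names a filter on CPM, read counts scaled to library size. Genes low in every library may therefore be absent, and whether this removed the 16 was not tested. All 44 are annotated with a plant peroxidase domain in RefSeq on TAIR10.1. The table held 4 further loci with such an annotation, AT2G18150, AT2G24800, AT3G17070 and AT5G42180, which are counted with the rest of the genome. Symbols are given where that annotation has one, and other members go by their locus.

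Poly(A) RNA was sequenced from whole seedlings of Arabidopsis thaliana, accession Col-0, raised for 3 days in darkness on nylon mesh over liquid medium. They then received 10 µM ABA or ethanol, the solvent control called mock here, and were sampled after 1, 4, 8, 12, 24, 36 or 60 h. Each of the 14 groups had 2 libraries, 28 in all, called replicate 1 and replicate 2 in every pair of values below. Whether replicates came from separately grown seedlings is not stated, and p-values therefore cover only the spread of these libraries, which may be technical. Levels are RPKM, read counts that the authors scaled to gene length and library size, so levels of different genes can be set side by side. An effect is the difference of log2(RPKM + 1), ABA minus mock, ± its standard error from limma, with 2 libraries per group. A gene is called higher or lower where its Benjamini-Hochberg adjusted p over all 18310 genes was under 0.05. RNA came from whole seedlings, so fewer cells of a type and less RNA per cell cannot be told apart.

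Reads recovered in the table's genes numbered 16265926 to 26604530 per library. Marker genes of 4 cell types or organs were followed beside the family. The summed level of the 4 measured root hair markers of 9 listed ran from 0.439 to 10 RPKM in mock and from 0.0878 to 12.9 RPKM with ABA. All 8 xylem markers were measured, with sums of 71.7 to 149 RPKM in mock and 73.6 to 239 RPKM with ABA. The 8 endodermis markers summed to 517 to 1234 and 361 to 1218 RPKM, and 4 of 5 shoot markers to 1787 to 7099 and 1244 to 7428 RPKM, in mock and ABA. No measured marker was at 0 in all libraries of a treatment, and the part of cell composition in the peroxidase values was not tested.

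The family was expressed over a wide range. In mock seedlings 8 members averaged over 100 RPKM, 15 lay between 10 and 100, 17 between 1 and 10, and 4 under 1 RPKM. The most abundant was AT2G37130, at 298 to 1036 RPKM (median 631) in the 14 mock libraries. It was followed by PRXR1 (AT4G21960) at 249 to 627 RPKM (median 404), AT5G64100 at 134 to 267 RPKM (median 209) and PRX71 (AT5G64120) at 31.9 to 532 RPKM (median 95.4). The ranges of PRXR1 and AT2G37130 overlapped, and so did those of AT5G64100 and PRX71.

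The summed level of the 44 members overlapped between the treatments although single members lay far apart. Over all times pooled, it ran from 1721 to 3724 RPKM (median 2450) in mock and from 1259 to 3711 RPKM (median 2315) with ABA. At 1 h the sums were 1804 and 1721 RPKM in mock and 1867 and 1259 RPKM with ABA. At 60 h they were 3724 and 2802 in mock and 3711 and 2600.0 with ABA. At both times the libraries of the treatments overlapped, and the sums at 60 h were above those at 1 h. Set against the mock library of the same time and replicate number, most ABA sums were lower. The exceptions were replicate 1 at 1 h and replicate 2 at 8 and 24 h. Whether the sums differed between treatments was not tested. With ABA, PRXCB and AT3G32980 averaged 284 and 346 RPKM, against 42.2 and 128 in mock, while AT2G37130 averaged 282 against 643.

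**Figure D1:**
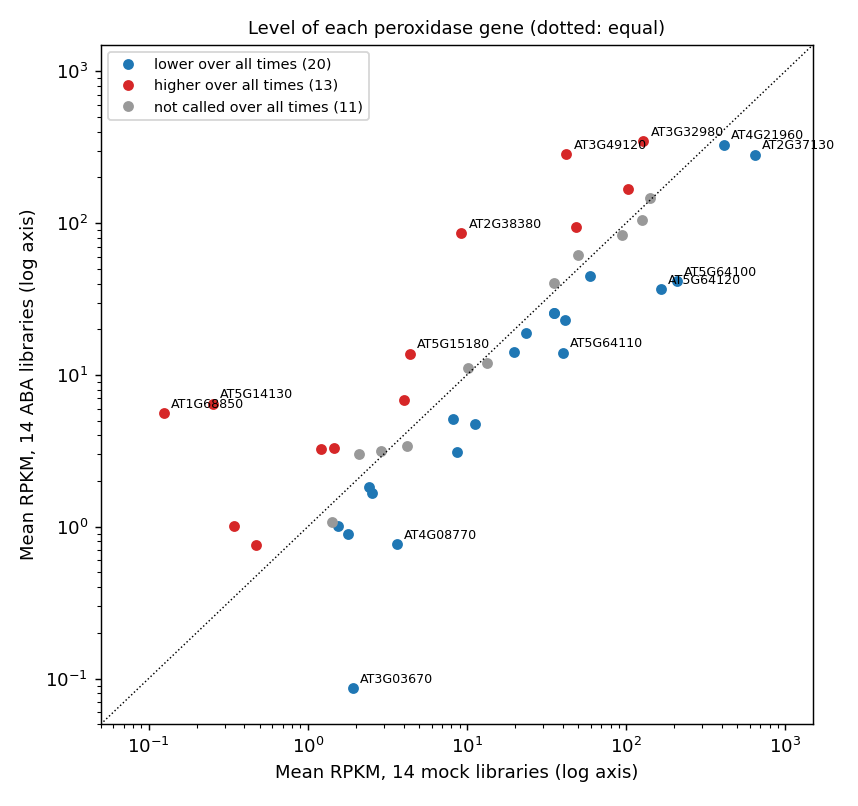
Mean RPKM of each of 44 peroxidase genes over 14 mock libraries (horizontal, log axis) and 14 ABA libraries (vertical, log axis), coloured by the call over all times. The 13 members called higher include PRXCB (AT3G49120), AT2G38380, AT1G68850 and AT5G14130, and the 20 called lower include AT5G64100, PRX71 (AT5G64120) and AT3G03670, which lie far from the dotted line of equal level.

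The response was split in direction from 4 h on, with few calls at 1 h. At 1 h, 1 member was higher and 2 were lower (2.27% and 4.55% of the 44), against 1.7% and 0.393% of all genes. At 4 h, 6 were higher (8.98% of all genes) and 9 lower (3.74%). At 8 h, 7 were higher (7.92%) and 7 lower (3.57%). For 12 h the counts were 6 (8.37%) and 12 (4.09%), for 24 h 7 (6.64%) and 9 (3.88%), for 36 h 9 (8.24%) and 9 (5.59%), and for 60 h 10 (7.84%) and 9 (5.73%). As shares of the 44 members, the calls of either direction made up 34.1% at 4 h and 43.2% at 60 h, against 12.7% and 13.6% of all genes. Over all genes that share was 2.09% at 1 h, 11.5% at 8 h, 12.5% at 12 h, 10.5% at 24 h and 13.8% at 36 h.

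Over the mean of the 7 times, 13 members were higher and 20 lower, 75.0% of the 44, where 21% and 18.1% of all genes were called, 39.1% in all. The median effect of the 44 members on that mean was -0.25, against -0.01 for all genes. The median size of the effect, whatever its sign, was 0.55 against 0.14. At some time 27 members were called, 12 of them higher and 15 lower, with no member in both, while 24.2% of all genes were called at some time. The other 17 were called at no single time in this fit. In each of the 103 calls at single times, the libraries of ABA and mock did not overlap. With 2 libraries per group this largely follows from being called, so it is no separate support. Members without a call could be apart too, as AT2G38390 was at 24 and 60 h. The share of calls without overlap over all genes was not counted. From 4 h on, 5 members were higher at every time and 4 lower at every time, shares that came to 4.0% and 1.28% over all genes.

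Some counts rested on few libraries. Without replicate 2 of ABA or replicate 1 of mock at 1 h, the single call of a higher member was lost and 1 member was lower, and without either ABA library of 60 h 4 were lower at 1 h. Without replicate 1 of ABA at 4 h, 3 were higher, and without either ABA library or replicate 1 of mock at 4 h, 5 were lower. Without replicate 1 of mock at 24 h, 5 were lower. With a block for replicate number, which pairs ABA and mock libraries, 38 members were called at some time, 11 of the 17 others among them. The share of all genes called at some time with the block was not counted. At 4 h 9 were then higher and 12 lower, and at 12 h 11 higher and 18 lower. In either direction that was 47.7% of members and 27.3% of all genes at 4 h, and 65.9% and 28.4% at 12 h. The block also gave 4 lower at 1 h, 12 lower at 8 h and 11 higher at 24 h. At these times it called 11.4%, 47.7% and 50% of members in either direction, against 4.92%, 25% and 24.4% of all genes. Quantile normalization gave 7 higher and 11 lower at 8 h, beside the 7 and 7 of the fit without it.

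**Figure D2:**
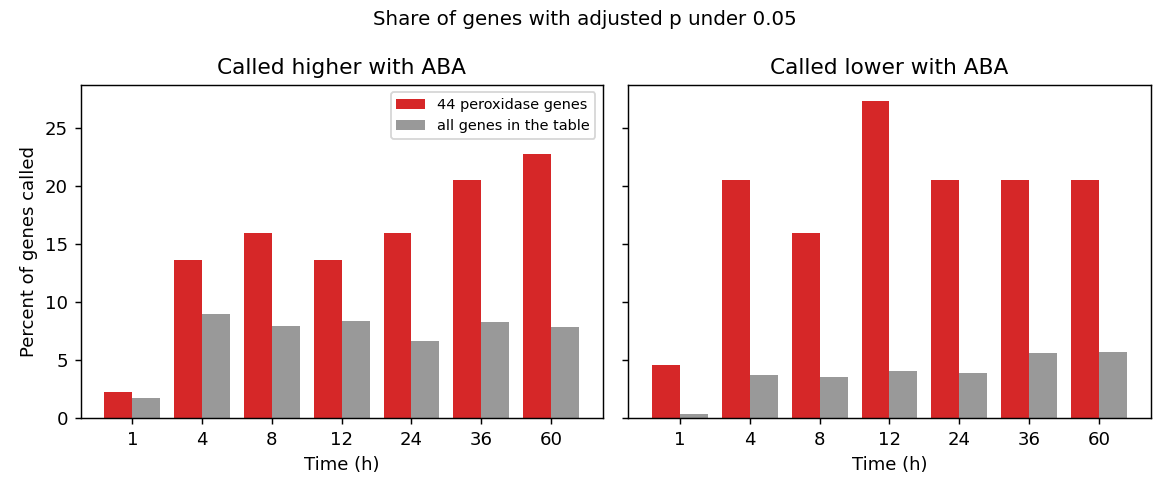
Percent of 44 peroxidase genes (red) and of all 18310 genes (grey) called higher (left) or lower (right) with ABA at each time in h; each bar is a single percentage with no error. At 12 h, 27.3% of members and 4.09% of all genes were called lower.

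**Figure D3:**
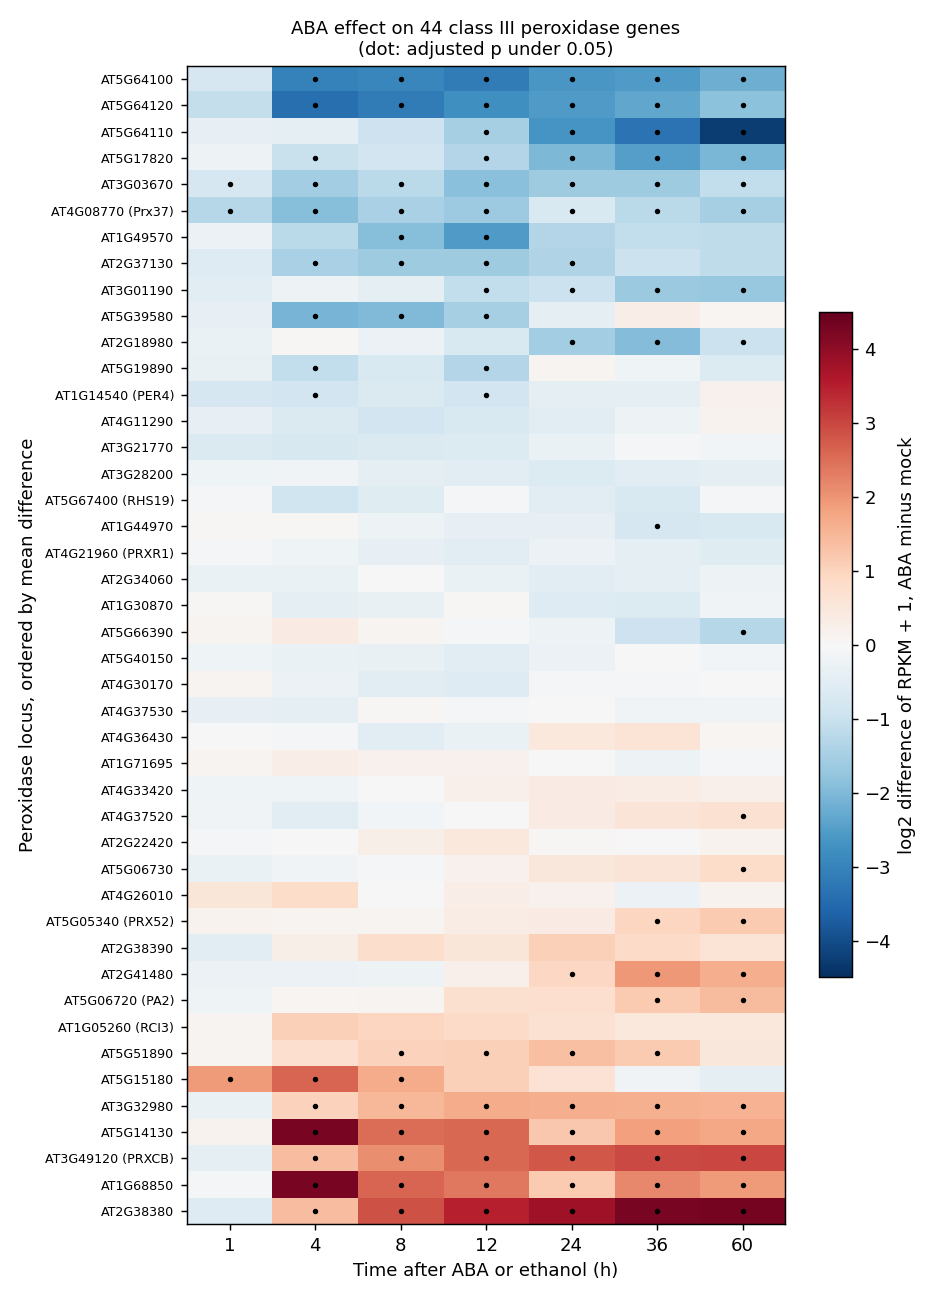
Effect of ABA (log2 difference of RPKM + 1, ABA minus mock; red higher, blue lower) for 44 peroxidase genes in rows and 7 times in h in columns, ordered by the mean effect; a dot marks an adjusted p under 0.05. Dots lie in blue cells for AT5G64100 and PRX71 (AT5G64120) and in red cells for AT2G38380 and PRXCB (AT3G49120) from 4 h to 60 h.

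A pair of members that were barely expressed in mock had the largest rises at 4 h among the 44 analysed. At such mock levels they may have passed the filter of the deposited table through their ABA libraries alone. Members low in both treatments may be missing from the comparison. AT1G68850 (chr1:25883556-25885261) lay between 0 and 0.267 RPKM in the 14 mock libraries, with a median of 0.128. In ABA libraries it read 0.280 and 0.0357 RPKM at 1 h and then 20.0 and 18.4 RPKM at 4 h. It then read 7.24 and 5.06 at 8 h, 5.78 and 4.08 at 12 h, 1.82 and 1.14 at 24 h, 3.69 and 3.83 at 36 h and then 3.70 and 3.25 RPKM at 60 h. From 4 h on, all ABA libraries lay above all mock libraries, with the highest values at 4 h and the lowest at 24 h. The effect was 4.26 ± 0.17 (adjusted p = 3.84e-12) at 4 h and 1.18 ± 0.17 (adjusted p = 7.79e-05) at 24 h. In reads, 1055 against 3 over the pairs of libraries at 4 h gave a ratio of 374 (95% exact interval 128 to 1815, counting error only). The added 1 RPKM makes the fitted effect smaller than that ratio, and limma-voom on recovered reads gave 8.72 at 4 h.

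AT5G14130 (chr5:4558704-4560315) followed the same course. It lay between 0.109 and 0.444 RPKM in mock, with a median of 0.246. Its ABA libraries held 0.427 and 0.305 RPKM at 1 h, 23.7 and 22.0 at 4 h, 6.31 and 5.89 at 8 h, 9.69 and 5.08 at 12 h, 1.80 and 2.27 at 24 h, 2.36 and 4.68 at 36 h and then 3.41 and 2.40 at 60 h. Here too every ABA library from 4 h on was above every mock library, and 4 h was highest. The effect was 4.27 ± 0.23 (adjusted p = 2.46e-10) at 4 h and 1.73 ± 0.23 (adjusted p = 2.82e-05) at 60 h, and limma-voom on recovered reads gave 6.56 and 3.96. Across the 28 libraries the pair had a Pearson's r of 0.98 on the log2 scale, a description of points that share treatment and time. Each was the other's closest match among the members. Their coding sequences were 51.8% identical. AT5G14130 overlaps the opposite-strand gene AT5G14120 by 7 bp, and AT5G14120 had a mean effect of -1.01.

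**Figure D4:**
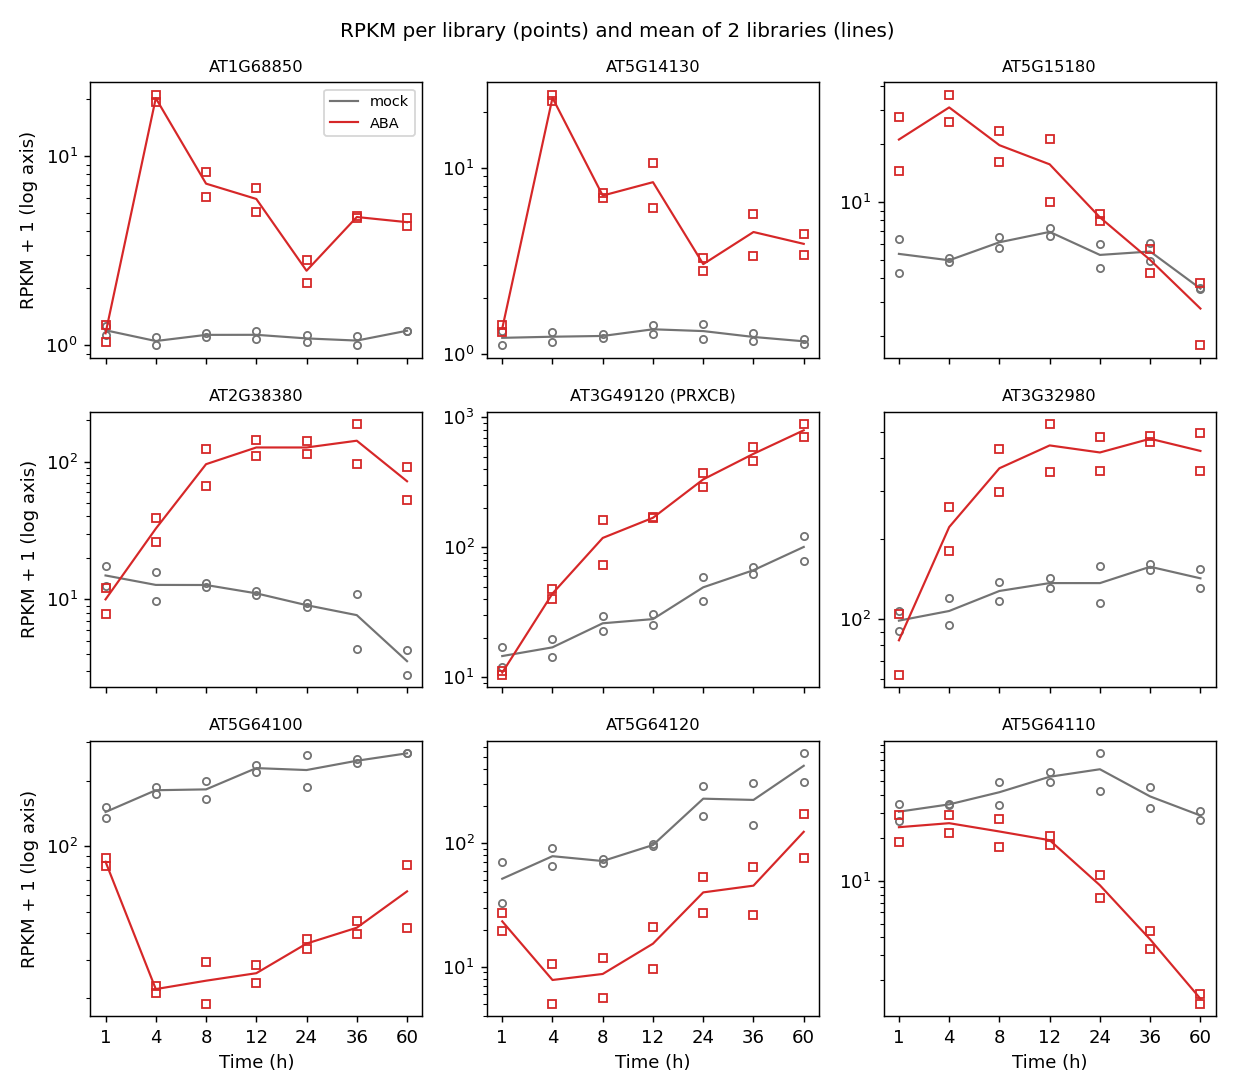
RPKM + 1 (log axis) of 9 peroxidase genes against time in h, in mock (grey circles) and ABA (red squares); points are single libraries and lines join the means of 2 libraries. AT1G68850 and AT5G14130 peak at 4 h with ABA, PRXCB (AT3G49120) rises to 889 and 702 RPKM at 60 h, and AT5G64110 falls to 0.369 and 0.598 RPKM.

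The 250 bases before the annotated starts of this pair are shown because the genes moved together. Sequences are 5′ to 3′ on the gene's strand, from RefSeq on TAIR10.1, and capitals mark ACGTG, the core that ABA-response bZIP factors bind, and TTGAC, the core that WRKY factors bind, on either strand (CACGT and GTCAA on the other). The window of AT1G68850 is chr1:25885262-25885511, minus strand, and that of AT5G14130 is chr5:4560316-4560565, minus strand.
AT1G68850: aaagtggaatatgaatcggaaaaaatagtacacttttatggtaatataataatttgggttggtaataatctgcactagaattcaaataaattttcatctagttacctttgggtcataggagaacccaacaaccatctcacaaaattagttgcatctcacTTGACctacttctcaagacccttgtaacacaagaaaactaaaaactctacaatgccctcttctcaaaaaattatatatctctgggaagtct
AT5G14130: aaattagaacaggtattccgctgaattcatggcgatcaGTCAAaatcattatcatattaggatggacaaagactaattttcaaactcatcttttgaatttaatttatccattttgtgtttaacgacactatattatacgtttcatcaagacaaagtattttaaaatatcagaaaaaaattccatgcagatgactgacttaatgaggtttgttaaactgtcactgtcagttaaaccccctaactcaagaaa
Neither window held ACGTG, and each held a single TTGAC match, 91 bases before the start of AT1G68850 and 212 bases before that of AT5G14130. A match is a description of letters and not a site.

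A second set of 3 members rose more slowly and stayed high. AT2G38380 (chr2:16076289-16078781) fell with time in mock, from 16.4 and 11.4 RPKM at 1 h to 9.68 and 10.4 at 12 h and then 1.83 and 3.25 at 60 h. Under ABA the values were 11.1 and 6.82 RPKM at 1 h, 38.0 and 25.2 at 4 h, 66.2 and 124 at 8 h, 144 and 109 at 12 h, 112 and 139.9 at 24 h, 95.5 and 187 at 36 h and then 51.8 and 90.6 at 60 h. The treatments overlapped at no time from 4 h on, and at 1 h the ABA pair was the lower. The effect was 3.51 ± 0.43 (adjusted p = 9.32e-06) at 12 h and 4.32 ± 0.43 (adjusted p = 8e-07) at 60 h, and the mean effect was 2.79 ± 0.16. That is the largest of the family on the log2(RPKM + 1) scale only, since with a pseudocount of 0.1 the means were 2.94 for AT2G38380, 3.89 for AT1G68850 and 3.46 for AT5G14130. The call at 4 h (1.37 ± 0.43, adjusted p = 0.0400) was lost without replicate 1 of ABA (adjusted p = 0.315), without replicate 2 of ABA (0.0555), without replicate 2 of mock (0.345) and without either mock library of 12 h (0.0502 each).

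PRXCB (AT3G49120, also PRX34), a source of the hydrogen peroxide burst in pathogen-treated Arabidopsis, rose in both treatments and more steeply with ABA. In mock it read 11 and 16.2 RPKM at 1 h, 58.6 and 38.0 at 24 h and then 121 and 78.2 at 60 h. ABA libraries gave 10.2 and 9.51 at 1 h, 47.1 and 39.3 at 4 h, 72.4 and 162 at 8 h, 375 and 290.2 at 24 h and then 889 and 702 RPKM at 60 h. At 60 h it was the most abundant member in the ABA libraries, and from 4 h on both ABA libraries exceeded both mock libraries. The effect grew from 1.39 ± 0.32 (adjusted p = 0.00487) at 4 h to 3.01 ± 0.32 (adjusted p = 1.69e-06) at 60 h. The 4 h call was lost without replicate 1 of ABA (adjusted p = 0.0639) or replicate 1 of mock (0.0802). Its tandem copy AT3G49110, 90.4% identical in coding sequence, was not analysed here, so reads may have been shared between them.

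AT3G32980, whose coding sequence is 84.2% identical to that of PRXCB, reached a plateau. It read 89.8 to 160.5 RPKM (median 129.8) in mock. Its ABA levels were 104 and 61.2 RPKM at 1 h, 262 and 178 at 4 h, 534 and 354 at 12 h and then 492 and 355 at 60 h. Every ABA library from 4 h on lay above every mock library. The effect was 1.68 ± 0.28 (adjusted p = 0.000277) at 12 h and 1.56 ± 0.28 (adjusted p = 0.000509) at 60 h. The call at 4 h (1.02 ± 0.28) was lost without replicate 1 of ABA (adjusted p = 0.248) or replicate 2 of mock (0.183).

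The neighbour of AT2G38380 had smaller effects, and the difference between the copies was not tested. AT2G38390 starts 897 bp downstream on the same strand, and its coding sequence is 90.6% identical. It read 6.05 and 3.21 RPKM in mock and 13.1 and 8.48 with ABA at 24 h, and 2.62 and 2.16 in mock and 5.47 and 3.18 with ABA at 60 h, and the treatments did not overlap at either time. It was called at no single time (at 60 h 0.62 ± 0.34, adjusted p = 0.316), though with the replicate block it was higher from 8 to 60 h (adjusted p = 0.000438 to 0.0253), and higher on the mean (0.52 ± 0.13, adjusted p = 0.00334). Both windows before the starts are shown because the calls of these copies differ, with ACGTG and TTGAC in capitals as above. The window of AT2G38380 is chr2:16076039-16076288, plus strand, and that of AT2G38390 is chr2:16079429-16079678, plus strand.
AT2G38380: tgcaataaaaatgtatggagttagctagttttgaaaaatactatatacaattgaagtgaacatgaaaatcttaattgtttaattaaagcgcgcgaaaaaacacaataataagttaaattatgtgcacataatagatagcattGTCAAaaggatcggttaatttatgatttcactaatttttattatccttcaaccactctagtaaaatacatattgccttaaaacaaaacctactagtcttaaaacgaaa
AT2G38390: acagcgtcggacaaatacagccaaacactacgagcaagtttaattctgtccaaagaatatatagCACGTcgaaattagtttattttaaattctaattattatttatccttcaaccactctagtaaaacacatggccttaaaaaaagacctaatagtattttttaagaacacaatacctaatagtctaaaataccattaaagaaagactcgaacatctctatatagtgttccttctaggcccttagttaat
The windows were 53.6% identical in a global alignment, below the identity of the coding sequences. AT2G38390 held a single ACGTG match, 186 bases before its start, and AT2G38380 a single TTGAC match, 108 bases before its start.

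AT5G15180 was the only member called higher at 1 h, and its rise had gone by 36 h. It read 3.27 and 5.43 RPKM in mock and 13.5 and 26.6 with ABA at 1 h. At 4 h the values were 4.07 and 3.85 in mock and 35.0 and 24.9 with ABA. By 36 h they were 3.94 and 5.08 in mock and 4.69 and 3.26 with ABA, and by 60 h 2.50 and 2.57 in mock and 2.77 and 0.789 with ABA RPKM. The treatments were apart from 1 h to 24 h and overlapped at 36 and 60 h. The effect was 1.93 ± 0.37 (adjusted p = 0.00503) at 1 h, 2.62 ± 0.37 (adjusted p = 4.44e-05) at 4 h and -0.44 ± 0.37 (adjusted p = 0.581) at 60 h. Without replicate 2 of ABA or replicate 1 of mock the 1 h call was lost (adjusted p = 0.149 and 0.123), and without replicate 2 of ABA the 8 h call (0.0794). By the F test that the ABA effect differs between times, 13 members were called (4.17% of all genes), AT5G15180 among them (adjusted p = 0.00628). The smallest adjusted p belonged to AT1G68850 (1.6e-07) and AT5G14130 (8.61e-06), followed by AT5G64110 (3.51e-05), AT2G38380 (0.000167) and PRXCB (0.000462).

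Members tied to lignin went in opposite directions. Of 9 loci listed for lignin formation, 8 were measured, and at 36 h 3 were higher and 1 lower (8.24% and 5.59% of all genes). On the mean, 3 of the 8 were higher and 2 lower, beside 21% and 18.1% of all genes, with a median effect of 0.12 against -0.01 for all genes. AT5G51890, which is known from differentiating vessels, read 57.8 and 39.1 RPKM in mock and 139 and 109 with ABA at 24 h, and 48.8 and 44.4 in mock and 88.5 and 51.2 with ABA at 60 h. The treatments did not overlap at either time. It was called from 8 to 36 h (1.35 ± 0.25, adjusted p = 0.000955 at 24 h) and not at 60 h (0.52 ± 0.25, adjusted p = 0.209), and with the replicate block also at 4 h (0.00828) and 60 h (0.0470). The calls at 8 and 12 h were lost without replicate 2 of ABA at 8 h (adjusted p = 0.179), replicate 2 of mock at 8 h (0.0928), replicate 1 of ABA at 12 h (0.0514) or replicate 2 of mock at 12 h (0.0528). AT5G51890 overlaps AT5G51880 on the other strand by 118 bp.

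PRX25 (AT2G41480), which contributes to stem lignin, rose late from a low level. At 1 and 4 h its ABA libraries were the lower pair. Its mock libraries held 0.482 to 2.82 RPKM (median 1.04). With ABA it read 1.32 and 1.01 RPKM at 12 h, 3.30 and 2.80 at 24 h, 9.91 and 6.39 at 36 h and then 10 and 6.87 at 60 h. From 24 h on no ABA library was as low as the mock libraries of its time, with effects of 1.96 ± 0.27 (adjusted p = 4.49e-05) at 36 h and 1.63 ± 0.27 (adjusted p = 0.000310) at 60 h. The weaker call at 24 h (0.92 ± 0.27) was lost without any of the 4 libraries of that time (adjusted p = 0.0710 to 0.225), with a pseudocount of 0.1 (0.0711) and by limma-voom on recovered reads (0.0677).

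PRX52 (AT5G05340), which oxidises syringyl units of lignin, was under 1 RPKM in all but 1 mock library. At such mock levels it may have passed the filter of the deposited table through its ABA libraries alone. At 60 h it read 1.46 and 0.367 RPKM in mock and 3.42 and 2.82 with ABA, apart in all 4 libraries (1.16 ± 0.27, adjusted p = 0.00497). That call was lost without replicate 1 of ABA (adjusted p = 0.0504) or replicate 2 of mock (0.128) and with a pseudocount of 0.1 (0.102), and the 36 h call (0.98 ± 0.27) without replicate 1 of ABA (0.152) or of mock (0.155), with a pseudocount of 0.1 (0.0947) and by limma-voom (0.0851). PRX72 (AT5G66390), also needed for stem lignin, went the other way at the end. It read 193 and 148 RPKM in mock and 79.0 and 60.3 with ABA at 60 h (-1.28 ± 0.32, adjusted p = 0.0110), a call lost without replicate 2 of ABA (adjusted p = 0.10) or replicate 1 of mock (0.112). At 4 h its treatments overlapped, at 125 and 96.9 in mock and 176 and 113 with ABA RPKM. PER4 (AT1G14540) was lower on the mean (-0.54 ± 0.09, adjusted p = 0.000104). AT2G22420 and AT4G33420 were not called on the mean, at 0.13 ± 0.06 (adjusted p = 0.0883) and 0.10 ± 0.08 (adjusted p = 0.306). With the replicate block AT2G22420 was higher (0.0262) and PRX72 lower (0.00203) on the mean. PRX71, the remaining measured locus of the list, is described with its neighbours. On the mean 7 of the 8 xylem markers were higher, beside 21% of all genes. By time, 3 were called higher at 4 h, 2 at 8 h, 1 at 12 h and 0 at 24, 36 or 60 h. The markers summed to 108 and 129 RPKM in mock and 167 and 232 with ABA at 4 h. At 36 h the sums were 139.0 to 139.3 RPKM in mock and 161 to 218 with ABA. At 60 h they overlapped, at 71.7 to 106 RPKM in mock and 73.6 to 129 with ABA. The part of the xylem markers in these peroxidase values was not tested.

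Among other characterised members, RCI3 and PA2 were higher on the mean, and PRXR1, Prx37 and AT1G44970 lower. All 5 listed were measured, and over all genes 21% were higher and 18.1% lower on the mean. RCI3 (AT1G05260), which is induced by cold and takes part in the response to potassium shortage, read 102 and 74.6 RPKM in mock and 244 and 139 with ABA at 4 h. The treatments did not overlap then, and they did at 60 h (83.6 and 52.6 in mock and 130.2 and 66.4 with ABA RPKM). It was called at no single time without the replicate block and from 4 to 24 h with it (adjusted p = 0.000778 to 0.0164), and on the mean the effect was 0.67 ± 0.15 (adjusted p = 0.00116). PA2 (AT5G06720, also PRX53) read 1.84 and 1.64 RPKM in mock and 7.41 and 5.40 with ABA at 60 h, well apart (1.42 ± 0.29, adjusted p = 0.00193). Its 36 h call (1.19 ± 0.29) was lost without replicate 1 of ABA (adjusted p = 0.145) or replicate 2 of mock (0.169). PRXR1 was lower on the mean by a small amount (-0.33 ± 0.13, adjusted p = 0.0480), a call lost in 19 of 28 fits that left out 1 library (adjusted p up to 0.0956). It was kept without replicate 1 of ABA at any time but 8 h, and without replicate 2 of mock at 24, 36 or 60 h. AT1G44970 was lower at 36 h (-0.77 ± 0.24, adjusted p = 0.0401), which was lost without any of the 4 libraries of that time (adjusted p = 0.0688 to 0.248) or either mock library of 1 h (up to 0.0507).

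On the log2(RPKM + 1) scale the largest mean falls belonged to 3 neighbouring genes on chromosome 5, and their time courses looked unlike. With a pseudocount of 0.1 the weakly expressed AT3G03670 fell further (-3.57, against -2.50 for AT5G64100, -2.52 for PRX71 and -2.21 for AT5G64110). AT5G64100, AT5G64110 and PRX71 (AT5G64120) lie in that order within chr5:25650567-25661007 on the minus strand, with gaps of 1826 and 3189 bp. AT5G64100 rose in mock from 134 and 151 RPKM at 1 h to 266 and 267 at 60 h. ABA levels were 80.1 and 87.7 RPKM at 1 h, 21.9 and 20.3 at 4 h, 17.9 and 28.3 at 8 h, 27.6 and 22.6 at 12 h, 32.9 and 36.6 at 24 h, 38.4 and 44.2 at 36 h and then 81.2 and 40.9 at 60 h. All ABA libraries lay below all mock libraries, at 1 h too. The effect was -3.03 ± 0.24 (adjusted p = 4.31e-08) at 4 h, -3.14 ± 0.24 (adjusted p = 3.99e-08) at 12 h and -2.19 ± 0.24 (adjusted p = 3.58e-06) at 60 h.

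PRX71, known to stiffen walls and restrict cell growth in Arabidopsis, was also lower from 4 h on and was highest at 60 h in both treatments. In mock it read 31.9 and 69.0 RPKM at 1 h, 64.8 and 89.9 at 4 h, 96.5 and 94.4 at 12 h and then 532 and 309.5 at 60 h. After ABA it stood at 18.5 and 26.1 at 1 h, 4.02 and 9.60 at 4 h, 4.63 and 10.8 at 8 h, 8.63 and 20.1 at 12 h and then 169 and 75.4 at 60 h. At every time both ABA libraries were below both mock libraries, although the replicates lay further apart than for AT5G64100. The effect was -3.41 ± 0.58 (adjusted p = 0.000357) at 4 h and -3.13 ± 0.58 (adjusted p = 0.000956) at 8 h. Later calls were lost without single libraries, at 12 h without replicate 1 of ABA (adjusted p = 0.0552), at 24 h without replicate 1 of ABA (0.102) or of mock (0.0894), and at 36 h without the same (0.146 and 0.132). The 60 h call (-1.83 ± 0.58, adjusted p = 0.0427) was lost without replicate 2 of ABA (0.306), replicate 1 of mock (0.276) or replicate 2 of mock (0.0595) and without any mock library of 4, 8 or 12 h (0.0511 to 0.0532), with a pseudocount of 0.1 (0.0519) and by limma-voom (0.0621).

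AT5G64110, between them, declined slowly instead. In mock it read 25.4 and 33.7 RPKM at 1 h, 77.7 and 41.7 at 24 h and then 25.6 and 29.9 at 60 h. With ABA it read 27.8 and 17.8 at 1 h, 20.6 and 28.1 at 4 h, 19.8 and 16.8 at 12 h, 10 and 6.57 at 24 h, 3.44 and 2.30 at 36 h and then 0.369 and 0.598 RPKM at 60 h. The treatments overlapped at 1 h and were apart from 4 h on. At 4 h, when both neighbours were called lower, the effect was -0.45 ± 0.31 (adjusted p = 0.444), and at 60 h it was -4.28 ± 0.31 (adjusted p = 1.67e-08), the largest fall of the family at any time on the log2(RPKM + 1) scale. By limma-voom it was -5.79, and AT3G03670 had -6.47 at 36 h. Across the 28 libraries, log2 levels of AT5G64110 had a Pearson's r of 0.52 with AT5G64100 and 0.13 with PRX71, a description of libraries that share treatment and time. Of the 8 endodermis markers, 3 were lower at 36 h (5.59% of all genes) and 3 at 60 h (5.73%), and 0 were called from 1 to 24 h. At 60 h the 8 summed to 746 and 1069.5 RPKM in mock and 361 and 537 with ABA, and their part was not tested.

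The windows before AT5G64100 and PRX71 are shown because these genes fell together at 4 h, with capitals as above. That of AT5G64100 is chr5:25652248-25652497, minus strand, and that of PRX71 is chr5:25661008-25661257, minus strand.
AT5G64100: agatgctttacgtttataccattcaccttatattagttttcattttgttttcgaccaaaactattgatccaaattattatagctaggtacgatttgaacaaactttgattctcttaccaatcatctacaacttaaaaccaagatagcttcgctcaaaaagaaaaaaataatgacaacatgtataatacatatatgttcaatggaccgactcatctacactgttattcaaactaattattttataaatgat
PRX71: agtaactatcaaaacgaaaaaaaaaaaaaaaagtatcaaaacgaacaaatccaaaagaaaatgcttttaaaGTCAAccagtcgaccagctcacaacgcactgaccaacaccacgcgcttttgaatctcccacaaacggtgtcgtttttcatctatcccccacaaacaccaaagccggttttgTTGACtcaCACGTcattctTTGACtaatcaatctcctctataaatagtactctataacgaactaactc
The window of PRX71 held an ACGTG match 60 bases before the start and 3 TTGAC matches, and that of AT5G64100 held neither. Nothing about a factor follows from the absence of letters in a window of this length.

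Most measured peroxidases linked to early germination were lower with ABA at 4 h, and fewer at 60 h. AT5G64100 and PRX71 are among 6 loci listed for seeds and germination, 5 of which were measured. At 4 h 4 of the 5 were lower, at 60 h 3, and on the mean all 5 (18.1% of all genes were lower on the mean). The median effect was -2.08 at 4 h and -0.85 on the mean, against -0.02 and -0.01 for all genes. AT5G39580 fell early and recovered. At 4 h it read 33.1 and 23.6 RPKM in mock and 5.20 and 6.53 with ABA, far apart (-2.08 ± 0.31, adjusted p = 9.3e-05). By 36 h the values were 21.0 and 23.7 in mock and 23.3 and 32.6 with ABA, and by 60 h 55.6 and 89.6 in mock and 55.2 and 102 with ABA RPKM, which overlapped (0.09 ± 0.31, adjusted p = 0.942).

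AT2G18980, of the same list, was lower late and not early. It read 8.97 and 8.62 RPKM in mock and 10.2 and 8.20 with ABA at 4 h, where the treatments overlapped (0.05 ± 0.24, adjusted p = 0.953). At 36 h it read 6.94 and 5.62 in mock and 0.797 and 0.931 with ABA, apart in all 4 libraries (-1.96 ± 0.24, adjusted p = 1.08e-05). At 60 h the values were 2.91 and 2.96 in mock and 0.896 and 1.09 with ABA RPKM (-0.98 ± 0.24, adjusted p = 0.00887), and that call was lost without replicate 1 of ABA (adjusted p = 0.0664), without replicate 2 of mock (0.0530) and by limma-voom (0.0513). PER4, also on this list, read 2.69 and 1.77 RPKM in mock and 0.714 and 0.815 with ABA at 4 h, with no overlap (-0.86 ± 0.24, adjusted p = 0.0230), a call lost without either ABA library (adjusted p = 0.141 and 0.0786) or replicate 1 of mock (0.227).

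Only AT3G03670 and Prx37 were called lower at all 7 times, and both were weakly expressed. At their low ABA levels they may have passed the filter of the deposited table through their mock libraries alone. Of all genes, 1.28% were lower at every time from 4 h on, and the share lower at all 7 times was not counted. AT3G03670 read 0.736 to 3.17 RPKM (median 1.93) in mock. With ABA it read 0.217 and 0.116 RPKM at 1 h, 0.0743 and 0.170 at 4 h and then 0.0458 and 0 at 24 h, and it was at 0 in all 4 ABA libraries of 36 and 60 h. No ABA library reached its mock libraries of the same time. At 36 h there were 87 reads in mock and 0 with ABA, at least 29.3-fold lower with 3 reads over the 2 libraries as the floor, while the exact 95% interval of the ratio starts at 23.3. At 60 h, 48 reads in mock against 0 gave at least 15.8-fold by that floor, and the interval starts at 12.4. The fitted effect, compressed by the added 1 RPKM, was -1.88 ± 0.17 (adjusted p = 3.56e-07) at 12 h, where limma-voom gave -5.61. The 1 h call (-0.76 ± 0.17) was lost without either ABA library (adjusted p = 0.0810 and 0.223) or replicate 1 of mock (0.420), with a pseudocount of 0.1 (0.0852) and by limma-voom (0.190).

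Prx37 (AT4G08770), which stunts growth when overexpressed, read 1.92 to 4.93 RPKM (median 3.65) in mock. The ABA pairs were 1.23 and 1.43 RPKM at 1 h, 0.141 and 0.442 at 4 h, 1.13 and 0.588 at 24 h and then 1.09 and 0.916 at 60 h. All ABA libraries were under all mock libraries. The effect was -1.27 ± 0.16 (adjusted p = 0.000106) at 1 h and -1.92 ± 0.16 (adjusted p = 1.01e-07) at 4 h, where limma-voom gave -3.87. At 24 h (-0.67 ± 0.16) the call was lost without replicate 2 of ABA (adjusted p = 0.188), replicate 1 of mock (0.0653) or replicate 2 of mock (0.0561), and with a pseudocount of 0.1 (0.0581). Its coding sequence is 93.8% identical to that of AT4G08780, which was not analysed here, so its reads may be shared.

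Both measured targets of UPB1 were lower on the mean, as were 18.1% of all genes. UPB1 is a bHLH factor that represses peroxidase genes at the transition from division to elongation in the root, and 2 of its 3 listed targets were measured. AT5G17820 read 13.7 and 14.6 RPKM in mock and 10.1 and 13.6 with ABA at 1 h, where the treatments were close but did not overlap. At 24 h it read 9.81 and 8.45 in mock and 1.34 and 1.61 with ABA, and at 60 h 4.42 and 5.35 in mock and 0.389 and 0.409 with ABA RPKM, with ABA far below. The effect was -2.47 ± 0.29 (adjusted p = 7.23e-06) at 36 h and -2.07 ± 0.29 (adjusted p = 5.15e-05) at 60 h. The calls at 4 h (-1.02 ± 0.29) and 12 h (-1.33 ± 0.29) were lost without any library of 4 h (adjusted p = 0.0659 to 0.200) and without replicate 2 of ABA or mock at 12 h (0.0822 and 0.0504). AT4G11290 was lower on the mean (-0.45 ± 0.11, adjusted p = 0.00211) and called at no single time, though at 8 and 12 h with the replicate block (adjusted p = 0.0164 and 0.0404). UPB1 itself (AT2G47270) had an effect of 1.00 at 4 h (adjusted p = 0.0156) and 0.51 at 60 h (0.269).

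The most abundant member, AT2G37130, was lower with ABA at 4, 8, 12 and 24 h. It read 434 and 374 RPKM in mock and 137 and 156 with ABA at 4 h. At 12 h the values were 730.2 and 620.4 in mock and 235 and 205 with ABA, and at 60 h 1036 and 667 in mock and 536 and 267 with ABA RPKM. The libraries did not overlap at these times, although 60 h was called only with the replicate block (-1.13 ± 0.39, adjusted p = 0.0642 without and 0.00605 with it). On the mean the effect was -1.24 ± 0.15 (adjusted p = 1.52e-06). Each single-time call was lost without some library of its time: at 4 h without any of the 4 (adjusted p = 0.0568 to 0.123), at 8 h without replicate 1 of ABA (0.0899) or of mock (0.0846), at 12 h without replicate 2 of ABA (0.0674) or replicate 1 of mock (0.0727), and at 24 h without the same (0.283 and 0.262). AT1G49570 was lower at 8 and 12 h (-2.54 ± 0.59, adjusted p = 0.00552 at 12 h), and AT3G01190 from 12 h on (-1.70 ± 0.29, adjusted p = 0.000414 at 60 h, where mock read 37.0 and 32.1 RPKM and ABA 11.1 and 8.87). The 12 h call of AT1G49570 was lost without replicate 2 of mock (adjusted p = 0.0731), and its 8 h call without replicate 1 of ABA (0.320), either mock library (0.0816 and 0.246) and by limma-voom (0.0622). For AT3G01190 the 12 h call was lost without replicate 2 of ABA (0.348) or of mock (0.180), and the 24 h call in 16 of 28 fits that left out 1 library, all 4 libraries of 24 h among them (up to 0.224).

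Of the root hair peroxidases, those known only from root hairs were weakly expressed. Of 6 listed loci 4 were measured, and on the mean 3 were lower (18.1% of all genes), with a median effect of -0.63. Of the 3, AT5G64100 and AT5G39580 are also on the germination list. RHS19 (AT5G67400, root hair specific 19) read 2.25 and 2.87 RPKM in mock and 0.858 and 0.979 with ABA at 4 h, without overlap and without a call (-0.89 ± 0.39, adjusted p = 0.171). On the mean it was lower (-0.40 ± 0.15, adjusted p = 0.0385), which was lost with a block for replicate number (adjusted p = 0.0505) and in 18 of 28 fits that left out 1 library (up to 0.0810). AT4G26010 was not called on the mean (0.25 ± 0.14, adjusted p = 0.179), and 1304 bp of it overlap an opposite-strand gene, so its reads may include that gene's. At 60 h RHS19 read 0.101 and 0.0409 RPKM in mock and 0 and 0 with ABA, and AT4G26010 0.148 and 0.0800 in mock and 0.362 and 0.118 with ABA. The 4 root hair markers summed then to 0.439 and 0.921 RPKM in mock and 0.0878 and 0.439 with ABA, from 7.09 and 9.02 and 7.42 and 12.3 at 1 h. Their part in these values was not tested.

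In mock seedlings, change over time was as common in the family as over all genes. The F test over the 7 mock times called 24 members, 54.5% of the 44, against 55% of all genes. Between 1 and 60 h, 15 members rose (30.3% of all genes) and 12 fell (31.1%), which is 61.4% of the members and 61.4% of all genes in either direction. With ABA, 18 rose (31.9%) and 12 fell (32%), against 63.9%. The largest rises in mock were those of PRX71 (3.08 ± 0.58, adjusted p = 0.000191), PRXCB (2.78 ± 0.32, adjusted p = 9.71e-07) and AT5G19890 (1.76 ± 0.32, adjusted p = 0.000139). AT5G19890 read 0.676 and 0.970 RPKM at 1 h and then 3.58 and 7.30 at 60 h, with no overlap. It was lower with ABA at 4 and 12 h, when the ABA libraries read 0.101 and 0.116 and then 0.0352 and 0.0781 RPKM against 1.61 and 1.18 and then 2.06 and 1.27 in mock. Its 4 h call (-1.10 ± 0.32) was lost without any of the 4 libraries of that time (adjusted p = 0.0737 to 0.177), and the 12 h call (-1.32 ± 0.32) without replicate 1 of ABA (0.0537) or of mock (0.108).

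The largest falls in mock were those of AT2G38380 (-2.08 ± 0.43, adjusted p = 0.000412), AT2G34060 (-2.07 ± 0.18, adjusted p = 5.96e-08) and AT4G26010 (-2.03 ± 0.38, adjusted p = 0.000162). AT2G34060 read 5.74 and 5.51 RPKM at 1 h and then 0.719 and 0.458 at 60 h, and AT4G26010 2.37 and 5.13 at 1 h and then 0.148 and 0.0800 at 60 h. In all of these the libraries at 60 h lay wholly below those at 1 h. Over the same span with ABA, PRXCB rose by 6.19 ± 0.32 (adjusted p = 2.38e-10), AT2G38380 rose by 2.84 ± 0.43 (adjusted p = 1.79e-05), and AT5G64110 fell by 3.97 ± 0.31 on the log2 scale (adjusted p = 1.08e-08). Over that span in mock, AT5G64110 stood at -0.08 ± 0.31 (adjusted p = 0.837).

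**Figure D5:**
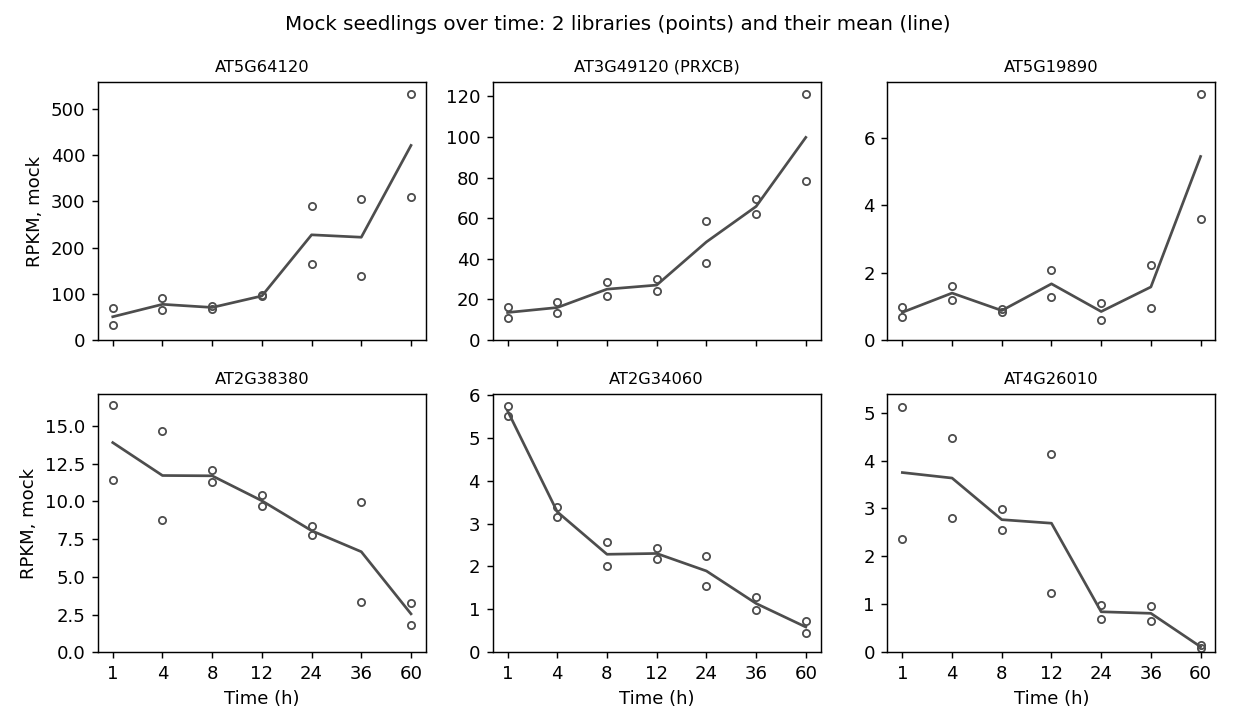
RPKM (linear axis from 0) of 6 peroxidase genes in mock seedlings against time in h; points are the 2 libraries of each time and lines join their means. The 3 genes of the upper row rise to 60 h, PRX71 (AT5G64120) to 532 and 309.5 RPKM, and the 3 of the lower row fall.

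Tandem copies did not always share a call. AT4G37520 and AT4G37530, 92.4% identical in coding sequence, had 60 h effects of 0.69 ± 0.19 (adjusted p = 0.0191) and -0.14 ± 0.22 (adjusted p = 0.818), and the call for AT4G37520 was lost without replicate 2 of ABA (adjusted p = 0.137) or either mock library (0.120 and 0.0596). PA2 and AT5G06730, 80.8% identical, were both higher at 60 h, at 1.42 ± 0.29 and 0.82 ± 0.20, the latter lost without replicate 1 of ABA (0.150) or of mock (0.0711). AT5G06730 read 0.177 to 0.801 RPKM in mock and may have passed the filter of the deposited table through its ABA libraries alone. Whether effects differ between copies was not tested, and reads from near-identical stretches may have been assigned to either copy.

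The 17 members called at no single time without the replicate block had mean effects between -0.45 and 0.67. On the mean RCI3 and AT2G38390 were higher, and PRXR1, RHS19, AT4G11290, AT2G34060 (-0.30 ± 0.07, adjusted p = 0.00193), AT3G21770 (-0.45 ± 0.09, adjusted p = 0.000498) and AT3G28200 (-0.40 ± 0.15, adjusted p = 0.0441) lower. The call for AT3G28200 was lost in 18 of 28 fits that left out 1 library (adjusted p up to 0.0904). The other 9 were not called on the mean either, except that the block called AT2G22420 higher and AT4G37530 (adjusted p = 0.0135) and AT5G40150 (0.00162) lower. Among the 9 was the abundant AT1G71695, at 85.0 to 207 RPKM (median 139) in mock and 89.0 to 179 RPKM (median 150.1) with ABA (0.07 ± 0.07, adjusted p = 0.481). AT4G30170, at 37.0 to 142 RPKM (median 104) in mock, had -0.19 ± 0.13, adjusted p = 0.263, and AT1G30870 had -0.28 ± 0.11, adjusted p = 0.0578. The ranges of the treatments overlapped in these 3 members. A p above the threshold does not show that these members did not differ.

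In the 250 bases before each start, the shares of ACGTG and TTGAC were near those of all 18057 genes with such a window, and those of the longer ACGTG forms were lower. ACGTG, on either strand, was in 12 of 44 members (27.3%), against 24.1% of all windows. Among the 13 higher on the mean it was in 4, among the 20 lower in 4 and among the 11 not called in 4, a split that was not tested. The longer ABA-response form ACGTGNC, which contains ACGTG, was in 3 of 44 members (6.82%), against 10.1% of all windows, and the palindrome CACGTG, which also contains it, was in 0 of 44, against 7.84%. TTGAC was in 19 of 44 members (43.2%), against 44.8%. It was in 7 of the 13 higher on the mean, 6 of the 20 lower and 6 of the 11 not called, a split that was not tested. PRX52, PA2 and PRX71 were among the members with ACGTG, and AT1G68850, AT5G14130, AT2G38380 and PRXCB were not.

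The authors' deposited table, with its own false discovery rates under 0.05, gave counts that differed most at 8 h. There it held 7 members higher and 12 lower, where 7 were higher and 7 lower here (11.4% of all genes in either direction in that table). At 4 h it held 8 higher and 10 lower (12.7%), at 36 h 8 and 12 (13.6%), and 9 against 11 at 60 h (13.3%). The sign of the authors' fold change in that deposited table matched the sign of the effect here for at least 43 of 44 members at each time.

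Genes that act with the peroxidases moved too. Of 18 genes of monolignol synthesis, which makes the substrates of lignin peroxidases, 10 were higher at 4 h (8.98% of all genes), with a median effect of 0.82 against -0.02 for all genes. On the mean 11 were higher and 1 lower, beside 21% and 18.1% of all genes. The cinnamoyl-CoA reductase gene CCR2 had an effect of 2.26 (adjusted p = 2.57e-06), the phenylalanine ammonia-lyase gene PAL4 1.72 (4.72e-05) and the cinnamyl alcohol dehydrogenase gene CAD5 1.69 (1.2e-05) at 4 h. Of 10 NADPH oxidase genes, which supply the superoxide that becomes hydrogen peroxide, 8 were measured, and on the mean 2 were higher and 6 lower, beside 21% and 18.1% of all genes. RBOHF, known for ABA signalling in guard cells, was higher on the mean (0.59, adjusted p = 2.28e-09), and so was RBOHE (1.58, 3.41e-12). RBOHD, the source of the immune burst, was lower on the mean (-0.27, 0.00742), and so was the root hair gene RBOHC (-0.33, 0.00296).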

How the data were processed

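The deposited table held RPKM of 18310 genes in 28 libraries, per the file headers, with the authors' log2 fold changes and false discovery rates, an adjusted p-value, per time. Per the submitters' processing notes, the authors used HTSeq 0.5.4 and edgeR 3.6.2 on build TAIR10. The aligner and the use of strand in counting are not given in the sources used here. Gene positions, symbols and sequences are RefSeq's on TAIR10.1.

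Values were analysed as log2(RPKM + 1) in limma 3.58.1 (R 4.3.3), with a mean per group and an intensity trend, two-sided, with 14 residual degrees of freedom, raised to 17.7 by the prior, and adjusted over 18310 genes. The median standard error at a time was 0.186. The fits were tested on simulated data. Of 512680 RPKM values, 100.0% were whole reads within 0.01, and limma-voom on those recovered reads replaced the planned count model, a choice made after seeing the data. Intervals and floors cover counting error only, and depth is given with the results. Coding sequences and windows were aligned globally with Biopython 1.88.

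Members, lists and tests were chosen with earlier results of these data known. Values of single libraries are given for up to 6 of the largest mean rises and falls of constant sign, the largest rise and fall at each time, the 5 smallest p for a time-dependent effect, the 4 most abundant, the 3 largest rises and falls of mock, and list members. AT3G32980, AT2G38390, AT1G49570, AT3G01190, AT4G37520, AT4G37530 and AT5G06730 were chosen after their values were seen.

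ABA and mock libraries of the same number deviated together at all 7 times (r 0.43 to 0.74 across genes, taken from the data), so the numbers were treated as pairs in an alternative fit with a block. Other alternatives were a pseudocount of 0.1, a mean RPKM of at least 1, quantile normalization, median-ratio scaling and leaving out each library.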

Additional observations from a re-analysis of the deposited data

Results flagged for a closer look

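In 13 members the effect of ABA differed between the 7 times by limma's F test, with p-values adjusted over all genes, where 4.17% of all genes did so. No member was flagged for a single library, since groups of 2 libraries are too small for such a test.

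The members that peaked at 4 h were AT1G68850 (adjusted p = 1.6e-07) and AT5G14130 (8.61e-06), with effects of 4.26 and 4.27 at 4 h and 1.90 and 1.73 at 60 h. AT5G15180 (0.00628) went from 2.62 at 4 h to -0.44 at 60 h. The effect of AT2G38380 (0.000167) grew from -0.59 at 1 h to 4.32 at 60 h, that of PRXCB (0.000462) from -0.40 to 3.01, that of AT3G32980 (0.0269) from -0.29 to 1.56, and that of PRX25 (0.0018) from -0.25 to 1.63.

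Among members that were lower, AT5G64110 (3.51e-05) went from -0.45 at 4 h to -4.28 at 60 h, AT5G17820 (0.0178) from -1.02 to -2.07, and AT2G18980 (0.00583) from 0.05 to -0.98. The effect of AT5G39580 (0.0044) returned from -2.08 at 4 h to 0.09 at 60 h. For AT5G64100 (0.00233) it was -0.76 at 1 h and -3.14 at 12 h, and for Prx37 (0.0479) -1.92 at 4 h and -0.67 at 24 h.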

How the results depend on the processing

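Of 136 calls of single members at a time or on the mean, none changed sign under any alternative, and 96 were kept in every fit that left out 1 library. With the replicate block 135 were kept, with quantile normalization 136, with a mean RPKM of at least 1 131, with a pseudocount of 0.1 130, and by limma-voom 129 with either scaling. The replicate block added 48 calls, quantile normalization 11, a pseudocount of 0.1 4, limma-voom 4 and limma-voom with median-ratio scaling 6. With 2 libraries per group, a fit without a library assumes that the lone library left varies like the other groups.

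Counts of members lower at 1 h were 4 with the replicate block and 1 with a pseudocount of 0.1 or limma-voom under either scaling, against 2. Those lower at 8 h were 12 with the replicate block and 11 with quantile normalization, against 7. Members higher at 12 h and at 24 h were 11 with the replicate block, against 6 and 7. With the block, members higher at 4 h went from 6 to 9 and those lower at 12 h from 12 to 18, each by 1.5 times, and other counts moved by less. The block raised the calls over all genes too, in either direction from 12.7% to 27.3% at 4 h and from 12.5% to 28.4% at 12 h. The block fit left 7 residual degrees of freedom and a median standard error of 0.117. The change of mock over time has no block fit, because the blocks lie within times.

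Without 1 library, members higher numbered 0 to 1 at 1 h, 3 to 7 at 4 h, 5 to 7 at 8 h, 5 to 8 at 12 h, 6 to 8 at 24 h, 7 to 10 at 36 h, 8 to 10 at 60 h and 12 to 14 on the mean. Members lower numbered 1 to 4, 5 to 11, 5 to 9, 8 to 13, 5 to 9, 7 to 9, 7 to 11 and 17 to 22 in the same order. Time-dependent effects numbered 10 to 15 and changes of mock over time 19 to 24. The planned count models, with their own scaling and with median-ratio factors, were not run on RPKM, and limma-voom replaced them. Median-ratio scaling moved the median of all genes by at most 0.039 (log2). Depth limits members under 1 RPKM, where few reads stand behind a library's value.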

Other observations

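Other wall enzymes and substrates were followed with the peroxidases. Laccases also polymerise monolignols, without hydrogen peroxide. Of 17 listed, 15 were measured, and on the mean 7 were higher and 2 lower, beside 21% and 18.1% of all genes. LAC5 had effects of -0.08 at 1 h, 3.6 at 4 h, 1.34 at 24 h and 2.46 at 60 h (adjusted p = 9e-12 at 4 h). At the same times AT1G68850 had -0.06, 4.26, 1.18 and 1.90. LAC12 reached 2.64 at 60 h (1.67e-08), and LAC7 was lower at all 7 times, with -2.56 at 24 h (3.35e-07). LAC4 and LAC17, the main stem lignin laccases, had mean effects of 0.36 (0.0825) and 0.62 (0.000356).

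Extensins are the wall glycoproteins that peroxidases cross-link. Of 8 listed, 7 were measured, and on the mean 2 were higher and 3 lower, beside 21% and 18.1% of all genes. EXT3, needed for embryo walls, had an effect of 2.70 at 60 h (adjusted p = 0.0233), the only call of the 7 at a single time. At 4 h limma called 0 of the 7, with 3 at an unadjusted p under 0.05, 0 by limma-voom and 3 with the replicate block. Their median effect was -1.07 at 4 h and -0.01 at 60 h, against -0.02 and 0.00 for all genes.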
